A study of Mus musculus with 13 samples.

Results

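Hs3st3b1, which encodes a heparan sulfate 3-O-sulfotransferase, was followed together with other genes that add sulfate to heparan sulfate or take it off: Hs3st3a1, Hs3st1, Hs6st1, Hs6st2, Hs2st1, Ndst1, Ndst2, Sulf1 and Sulf2. A gene was taken from the array through features (transcript clusters) that carry its symbol and no other. Of the 10 genes, 9 had such a feature, exactly 1 each, among 30142 genes measured this way, and Ndst1 was not analysed here. Hs3st3b1 was picked because it differed between MIX and CON in these same 13 mice, so its levels are given as a description with no test, while the other 8 genes were tested.

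The RNA came from scraped endometrium of C57BL/6 females whose ovaries had all been removed on both sides at 6 to 8 weeks of age and which were then treated for 12 weeks. CON mice (n = 3) ate chow and had no pellet, E2 mice (n = 4) ate chow and carried a subcutaneous 17-β estradiol pellet, HD mice (n = 3) ate a high-fat diet, and MIX mice (n = 3) had both the pellet and the high-fat diet. The ovaries were absent in the controls too, so every comparison is against a mouse with no ovarian source of hormone, and scraping can bring along cells other than endometrium. Each mouse gave 1 array. Levels are log2 values and are compared between mice for the same gene only, because the features of different genes need not be equally bright at the same amount of RNA.

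Heparan sulfate is a long sugar chain carried by core proteins of the cell surface and the extracellular matrix, where it binds growth factors, chemokines and enzymes through its pattern of sulfate groups. N-deacetylase/N-sulfotransferases such as Ndst2 begin the modification, Hs2st1 sulfates the uronic acid, Hs6st1 and Hs6st2 the 6-O position of glucosamine, and the Hs3st enzymes add the rare 3-O group. Hs3st1 is known for making the antithrombin-binding site, and Hs3st3a1 and Hs3st3b1, whose sulfotransferase domains are nearly identical, make 3-O-sulfated sites of another type. Sulf1 and Sulf2 are secreted or surface enzymes that remove 6-O sulfate from finished chains.

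Hs3st3b1 and Hs3st3a1 lie on the same chromosome, and their promoters are shown because both genes had their lowest group mean in MIX. The sequences are from RefSeq (GRCm38.p6), run from 250 bases before to 50 bases after the annotated start, and are written 5′ to 3′ on the strand of the gene. That of Hs3st3b1 is chr11:63922235-63922534 on the minus strand and that of Hs3st3a1 is chr11:64435082-64435381 on the plus strand. Capitals mark a GC box (GGGCGG), the promoter element known by its letters as the CCAAT box, or a cAMP response element (TGACGTCA), each searched on both strands.
Hs3st3b1: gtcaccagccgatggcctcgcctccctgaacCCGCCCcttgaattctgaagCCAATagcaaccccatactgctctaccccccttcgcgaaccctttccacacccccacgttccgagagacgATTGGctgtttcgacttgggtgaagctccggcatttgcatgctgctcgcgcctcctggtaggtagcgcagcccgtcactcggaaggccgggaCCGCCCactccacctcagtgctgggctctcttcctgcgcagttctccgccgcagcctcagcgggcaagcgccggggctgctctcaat
Hs3st3a1: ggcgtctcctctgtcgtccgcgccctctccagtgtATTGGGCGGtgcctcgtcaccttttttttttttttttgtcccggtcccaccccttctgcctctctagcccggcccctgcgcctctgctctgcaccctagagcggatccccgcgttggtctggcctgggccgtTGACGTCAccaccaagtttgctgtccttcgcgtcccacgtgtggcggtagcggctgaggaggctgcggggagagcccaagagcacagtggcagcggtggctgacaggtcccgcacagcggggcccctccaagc
The Hs3st3b1 promoter held 2 GC boxes and 2 CCAAT boxes. The Hs3st3a1 promoter held 1 of each, which overlap, and 1 cAMP response element. In the whole table of 32851 promoters of this length, from 27025 genes, 35.7% held a GC box, 37.4% a CCAAT box and 1.79% the cAMP response element. The estrogen response element, GGTCA and TGACC with 3 bases of any kind between them, stood in 23 of them (0.07%) and in none of the 10 promoters listed for 8 of the 10 genes. GGTCA alone stood in 40.5% of all promoters, in neither of the pair, and 1 time each in Hs3st1 and Hs6st2. The AP-1 letters TGANTCA, in 7.81% of all promoters, were in none of the 10. The GC content was 63.7% for Hs3st3b1 and 65.3% for Hs3st3a1, against a median of 52.7% over the table. These are letter matches in short windows, and binding was not measured.

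Hs3st3b1 was high in mice without a pellet and low in mice with one. The log2 levels were 7.0, 7.11 and 7.32 in the 3 CON mice and 6.99, 7.01 and 7.1 in the 3 HD mice. They were 6.34, 6.62, 6.75 and 6.81 in the 4 E2 mice and 6.39, 6.36 and 6.19 in the 3 MIX mice. All 7 pellet mice lay below all 6 mice without one. Of the 65929 features on the array, 115 (0.174%) had all pellet mice below all others, a share from which nothing is read here, since Hs3st3b1 was chosen on its difference between MIX and CON, whose mice enter this pattern.

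The group means of Hs3st3b1 ran, from high to low, 7.14 ± 0.16 in CON (SD, n = 3), 7.04 ± 0.06 in HD (n = 3), 6.63 ± 0.21 in E2 (n = 4) and 6.31 ± 0.11 in MIX (n = 3). CON and HD overlapped, and E2 and MIX overlapped through E2 replicate 1, whose 6.34 lay within the MIX range. HD and E2 did not overlap, which is part of the separation of pellet mice given above, and nothing is read from it either. Differences were estimated by a linear model over all 13 mice that also holds the style of the animal code in the sample titles, numbered or lettered. All 3 MIX mice carry lettered codes, and the labels do not say what the styles mean. In that model Hs3st3b1 was 0.97 log2 units lower in MIX than in CON (difference -0.97, SE 0.12, 95% interval -1.23 to -0.7), which puts MIX at 51.1% of the CON level. The code style term itself put lettered mice 0.2 above numbered mice (SE 0.09). Without the code style the difference was -0.83 (56.2%). Among lettered mice alone it was -1.01, where CON has 1 mouse, replicate 3, the highest at 7.32. E2 minus CON was -0.5 (SE 0.1, 95% interval -0.71 to -0.28), or 70.9% of CON. Among numbered mice it was -0.48, and between the 1 lettered mouse of each group it was -0.51.

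On the high-fat diet the pellet difference of Hs3st3b1 (MIX minus HD) was -0.86 (SE 0.12, 95% interval -1.13 to -0.6). It was -0.79 among lettered mice, of which HD has 1. Averaged over both diets, the pellet difference was -0.68 (SE 0.08, 95% interval -0.85 to -0.51), which is 62.5% of the level without a pellet. For the diet without a pellet, HD minus CON was -0.11 (SE 0.1, 95% interval -0.34 to 0.12). Among pellet mice, MIX minus E2 was -0.47 (SE 0.12, 95% interval -0.73 to -0.21), but it was -0.32 without the code style. The average diet difference was -0.29 (SE 0.08, 95% interval -0.46 to -0.12), and it was -0.214 without the code style. The interaction, MIX minus HD less E2 minus CON, was -0.36 (SE 0.16, 95% interval -0.71 to -0.02), and it was -0.211 without the code style and between -0.454 and -0.15 over all alternatives. These intervals are for 1 gene and do not allow for its having been chosen. The comparisons share mice, since CON enters 3 of the pairwise differences and MIX enters 3, so the estimates are not independent of each other.

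**Figure D1:**
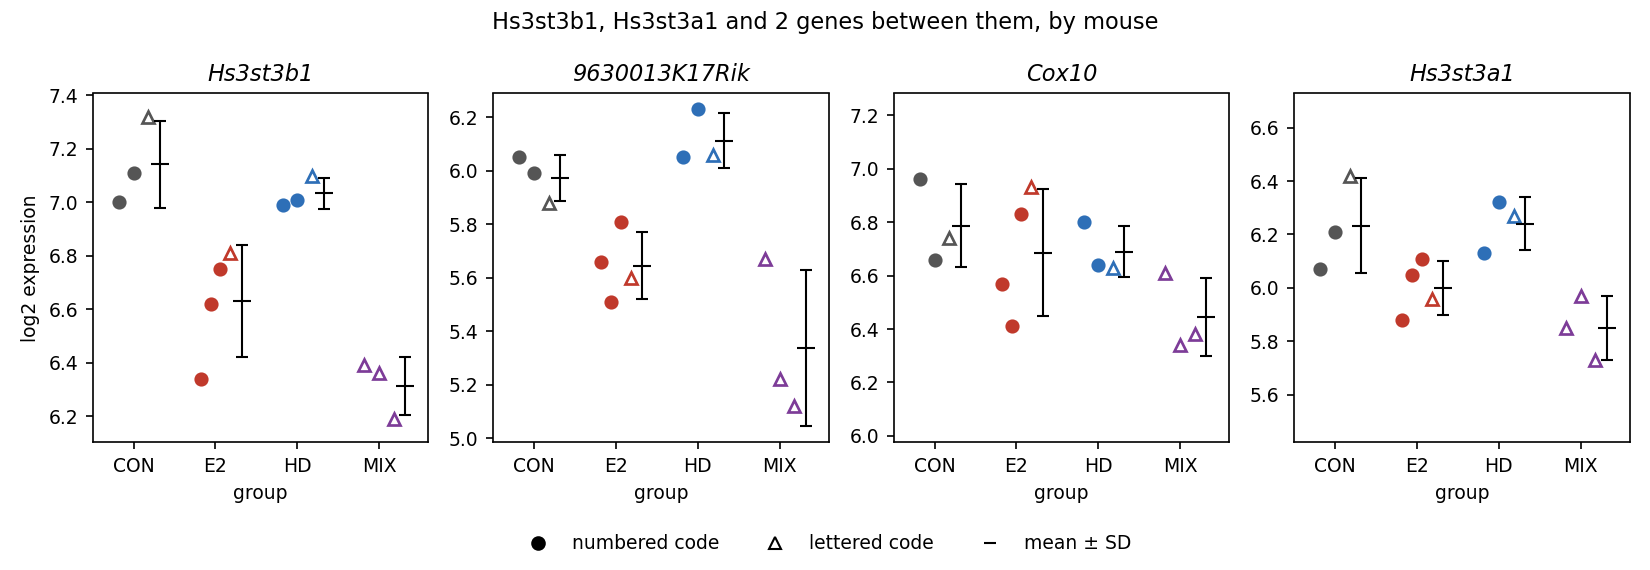
Log2 level of Hs3st3b1, Hs3st3a1 and, between them on the chromosome, 9630013K17Rik and Cox10, in each mouse by group (n = 3 CON, 4 E2, 3 HD and 3 MIX). Points are mice, filled circles for numbered and open triangles for lettered codes, and the bars show the mean and SD. The 7 pellet mice of Hs3st3b1 sit between 6.19 and 6.81, all below the 6 others at 6.99 to 7.32, and Hs3st3a1 shows less separation.

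Hs3st3a1, the closest relative of Hs3st3b1, was lowest in the same group but less separated. Its log2 levels were 6.07, 6.21 and 6.42 in CON and 6.13, 6.32 and 6.27 in HD. They were 5.88, 6.05, 6.11 and 5.96 in E2 and 5.85, 5.97 and 5.73 in MIX. MIX overlapped neither CON nor HD, being lower than both, while E2 overlapped CON, and 6 of the 7 pellet mice lay below all mice without a pellet. Of all features, 12.4% lay lower in MIX than in CON without overlap and 12.4% lower in MIX than in HD.

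The fitted MIX minus CON difference of Hs3st3a1 was -0.45 (SE 0.12), 73.4% of CON, and it did not pass (unadjusted p 0.00354, limma adjusted p 0.371). MIX minus HD was -0.45 (SE 0.12, limma adjusted p 0.611) and E2 minus CON was -0.23 (SE 0.1, limma adjusted p 1). The average pellet difference was -0.34 (SE 0.08), with an unadjusted p of 0.00108 and a limma adjusted p of 0.228. HD and CON had the same mean, 6.24, with SDs of 0.1 and 0.17. Without CON replicate 3, the highest CON mouse, MIX minus CON was -0.292. Whether the features of these nearly identical genes pick up each other's RNA was not tested, as probe sequences were not used here.

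Between Hs3st3a1 and Hs3st3b1 the RefSeq table places 6 genes, of which Cox10, an enzyme of heme A synthesis, codes for protein, and 4 of them had a feature with 1 symbol. These neighbours were looked at after the values of the pair were known. The long noncoding RNA 9630013K17Rik had levels of 6.05, 5.99 and 5.88 in CON, 6.05, 6.23 and 6.06 in HD, 5.66, 5.51, 5.81 and 5.6 in E2 and 5.67, 5.22 and 5.12 in MIX. All 7 pellet mice of 9630013K17Rik lay below the other 6, as in 0.174% of all features. Its average pellet difference was -0.53 (SE 0.1; unadjusted p 0.000266, limma adjusted p 0.163), and MIX minus CON was -0.58 (SE 0.15, limma adjusted p 0.371). Cox10 had group means of 6.79 ± 0.16 in CON, 6.69 ± 0.24 in E2, 6.69 ± 0.09 in HD and 6.44 ± 0.15 in MIX. Its average pellet difference was -0.19 (SE 0.1, limma adjusted p 0.558). That of 2810001G20Rik was -0.2 (SE 0.06, limma adjusted p 0.349), and Gm12290 stayed between 2.92 and 3.21, below the array medians of 4.48 to 4.71.

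Hs3st1 gave no separation by pellet or diet. The levels were 6.9, 6.79 and 6.34 in CON, 6.91, 6.78, 6.67 and 6.2 in E2, 6.44, 6.61 and 6.77 in HD and 6.74, 6.62 and 7.14 in MIX. All 4 groups overlapped, and the highest mouse was MIX replicate 3. MIX minus CON was 0.35 (SE 0.21, limma adjusted p 0.709), the opposite sign to Hs3st3b1 and Hs3st3a1. It was 0.18 without CON replicate 3 and 0.155 without the code style. E2 minus CON was -0.06 (SE 0.17, limma adjusted p 1).

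Ndst2, which acts first on the chain, was highest in CON. Its levels were 7.2, 7.18 and 7.17 in CON, 6.78, 7.0, 6.82 and 7.04 in E2, 7.03, 6.96 and 7.03 in HD and 7.1, 7.07 and 6.99 in MIX. The CON mice, spread over 0.02 (SD, n = 3), lay above every mouse of each of the other groups. E2 lay below CON without overlap in 2.6% of all features, HD in 2.96% and MIX in 12.4%. E2 minus CON was -0.27 (SE 0.07; unadjusted p 0.00345, limma adjusted p 1), HD minus CON -0.17 (SE 0.08, limma adjusted p 1) and MIX minus CON -0.17 (SE 0.09, limma adjusted p 0.645). MIX minus HD was 0 (SE 0.09), and none of these differences passed.

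Ndst2 is also known for making the highly sulfated heparin of mast cells. Of 8 mast cell markers, 4 lay below the array medians in every mouse, and the mean over the markers was 4.1 to 4.42 in CON, 4.02 to 4.3 in E2, 4.04 to 4.12 in HD and 4.05 to 4.88 in MIX. The highest of these, 4.88, was MIX replicate 2. Their part in the Ndst2 levels was not tested.

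Hs2st1, the single 2-O-sulfotransferase of heparan sulfate, was nearly level. Its mice ranged from 7.86 (HD replicate 3) to 8.1 (MIX replicate 3), and the group means were 8.0 ± 0.05 in CON, 7.95 ± 0.02 in E2, 8.0 ± 0.12 in HD and 7.99 ± 0.11 in MIX. Its average pellet difference was -0.01 (SE 0.05, limma adjusted p 0.983).

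The 6-O-sulfotransferases Hs6st1 and Hs6st2 overlapped between most groups. Hs6st1 had 9.58, 9.43 and 9.22 in CON, 8.65, 8.84, 9.35 and 9.13 in E2, 9.18, 9.09 and 9.55 in HD and 9.25, 8.75 and 9.64 in MIX. MIX alone ran across nearly the whole range of the study, and the average pellet difference was -0.27 (SE 0.18, limma adjusted p 0.623), with -0.419 without CON replicate 3 and -0.151 without HD replicate 3. Hs6st2 lay between 4.94 and 5.22 in all mice, close to the array medians, with group means of 5.1 ± 0.14 in CON, 5.05 ± 0.05 in E2, 5.08 ± 0.05 in HD and 5.0 ± 0.03 in MIX. Its only groups without overlap were MIX and HD (5.02 against 5.03 at the boundary), where 12.4% of all features lay lower in MIX without overlap. The fitted MIX minus HD difference of Hs6st2 was -0.03 (SE 0.08, limma adjusted p 0.955).

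**Figure D2:**
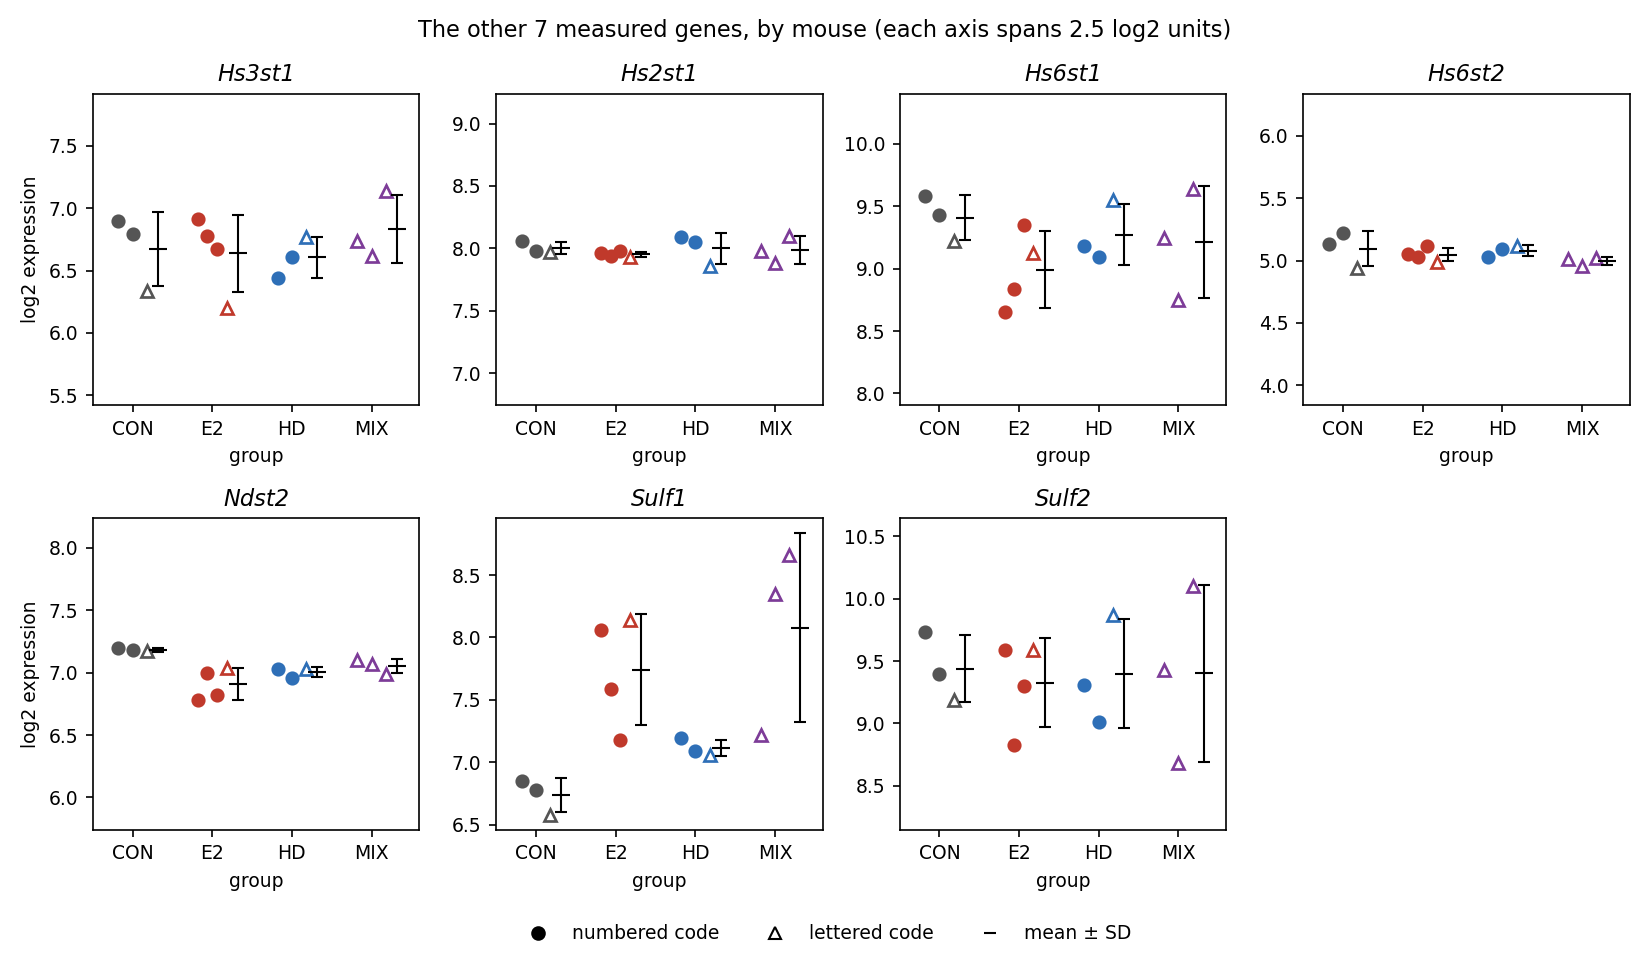
Log2 level of the other measured sulfotransferases and sulfatases in each mouse by group, 1 panel per gene. The vertical axes have the same span in all panels and are centred on the levels of each gene. Points are mice, filled circles for numbered and open triangles for lettered codes, and the bars show the mean and SD. Sulf1 spreads from 6.58 to 8.66 and Ndst2 is highest in CON, while Hs2st1 and Hs6st2 stay within narrow ranges.

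Sulf1, which trims 6-O sulfate outside the cell, had its highest levels in the pellet groups, where Hs3st3b1 was lowest. Its levels were 6.85, 6.78 and 6.58 in CON, 7.19, 7.09 and 7.06 in HD, 8.06, 7.59, 7.18 and 8.14 in E2 and 7.22, 8.35 and 8.66 in MIX. Every mouse of E2, HD and MIX lay above the highest CON mouse, and 6 of the 7 pellet mice lay above the highest mouse without one, the exception being E2 replicate 3. Of all features, 3.01% in E2, 5.58% in HD and 5.52% in MIX lay above CON without overlap, and 3.47% in MIX above HD, as Sulf1 did.

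The fitted Sulf1 differences were 1.01 (SE 0.32) for E2 minus CON, which is 202% of CON, and 1.29 (SE 0.39), 244% of CON, for MIX minus CON. With unadjusted p values of 0.0101 and 0.00831 they did not pass (limma adjusted p 1 and 0.433). E2 minus CON was 0.79 among numbered mice and 1.56 between the 1 lettered mouse of each group. The average pellet difference was 0.96 (SE 0.25; unadjusted p 0.0031, limma adjusted p 0.299). Without MIX replicate 1, the lowest MIX mouse at 7.22, it was 1.174 with a limma adjusted p of 0.0382, so that 1 library decides whether Sulf1 passes. Without MIX replicate 3 the MIX minus CON difference was 0.996.

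Sulf2, which acts on the same sulfate group, did not share the pattern. Its levels were 9.73, 9.4 and 9.19 in CON, 9.59, 8.83, 9.3 and 9.59 in E2, 9.31, 9.01 and 9.87 in HD and 9.43, 8.68 and 10.1 in MIX. The groups overlapped throughout, and MIX held the lowest and the highest mouse of the study. The average pellet difference was -0.12 (SE 0.25, limma adjusted p 0.905).

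Over the 8 tested genes, 0 passed an adjusted p under 0.05 in limma in any of 8 comparisons. In E2 minus CON, 3 of 8 had an unadjusted p under 0.05 (Hs3st3a1 and Ndst2 lower, Sulf1 higher), where 4.02% of all features did and 0% passed after adjustment. In HD minus CON 1 of 8 did (Ndst2 lower), against 2.91% of features and again 0% after adjustment. In MIX minus CON 2 of 8 did (Hs3st3a1 lower, Sulf1 higher), against 8.34% of features, and 0.00303% of features passed. In MIX minus HD the same 2 genes did, against 7.05%, and 0.00455% passed. In MIX minus E2 0 of 8 did, against 2.78%, with 0% passing. For the interaction 1 of 8 did (Ndst2, 0.27, SE 0.11, limma adjusted p 1), against 2.1%, with 0% passing. In the average pellet difference 3 of 8 did (Hs3st3a1, Ndst2 and Sulf1), against 9.99%, and 0.0167% of features passed. In the average diet difference 0 of 8 did, against 3.36%, with 0% passing. Of the 9 measured genes, 3 were higher and 6 lower in MIX than in CON, with a median of -0.17 against -0.03 over all features. This count and median include Hs3st3b1, which was chosen on the same difference, so nothing is read from them.

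**Figure D3:**
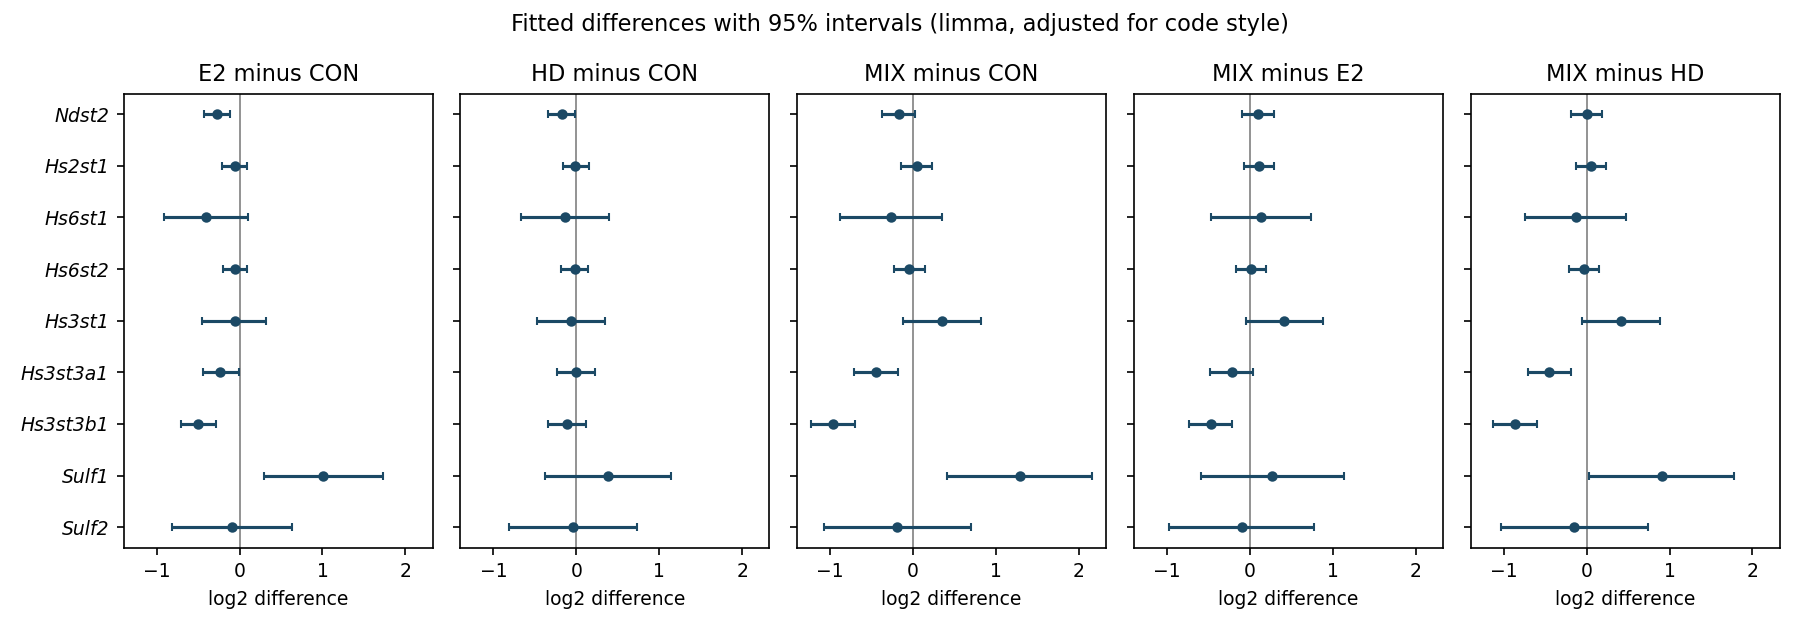
Fitted log2 differences of the 9 measured genes with their 95% intervals. The comparisons shown are E2 minus CON, HD minus CON, MIX minus CON, MIX minus E2 and MIX minus HD. Hs3st3b1 (-0.97) and Hs3st3a1 (-0.45) lie below 0 and Sulf1 (1.29) above 0 in MIX minus CON, while Hs2st1 and Hs6st2 stay near 0.

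The genes with the most similar profile were found by the root mean square difference of mean-centred log2 values over the 13 mice, among 18767 genes. This is a description, with no test. For scale, the profile of Hs3st3b1 itself has a root mean square of 0.346. The closest were Barx2, a homeobox transcription factor (0.103), Zswim5 (0.132), Arhgef19 (0.146), Ldlrad3, a membrane protein of the LDL receptor class (0.153), and Jakmip1 (0.164). Barx2 had group means of 7.36 in CON, 6.75 in E2, 7.1 in HD and 6.48 in MIX, in the same order as Hs3st3b1. Hs3st3a1 came at rank 22, with a difference of 0.187.

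The genes nearest to the reversed profile were Tcea3, a transcription elongation factor (0.136), Degs1, the dihydroceramide desaturase (0.141), Plxna4, a semaphorin co-receptor (0.143), Aqp4, a water channel (0.145), and Tanc2, a scaffold protein (0.149). Degs1 had group means of 7.34 in CON, 7.72 in E2, 7.33 in HD and 8.08 in MIX, and Plxna4 had 6.92, 7.51, 7.13 and 7.88 in the same order of groups. The HD mean of Degs1 lay at its CON mean, and that of Plxna4 lay between CON and E2.

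**Figure D4:**
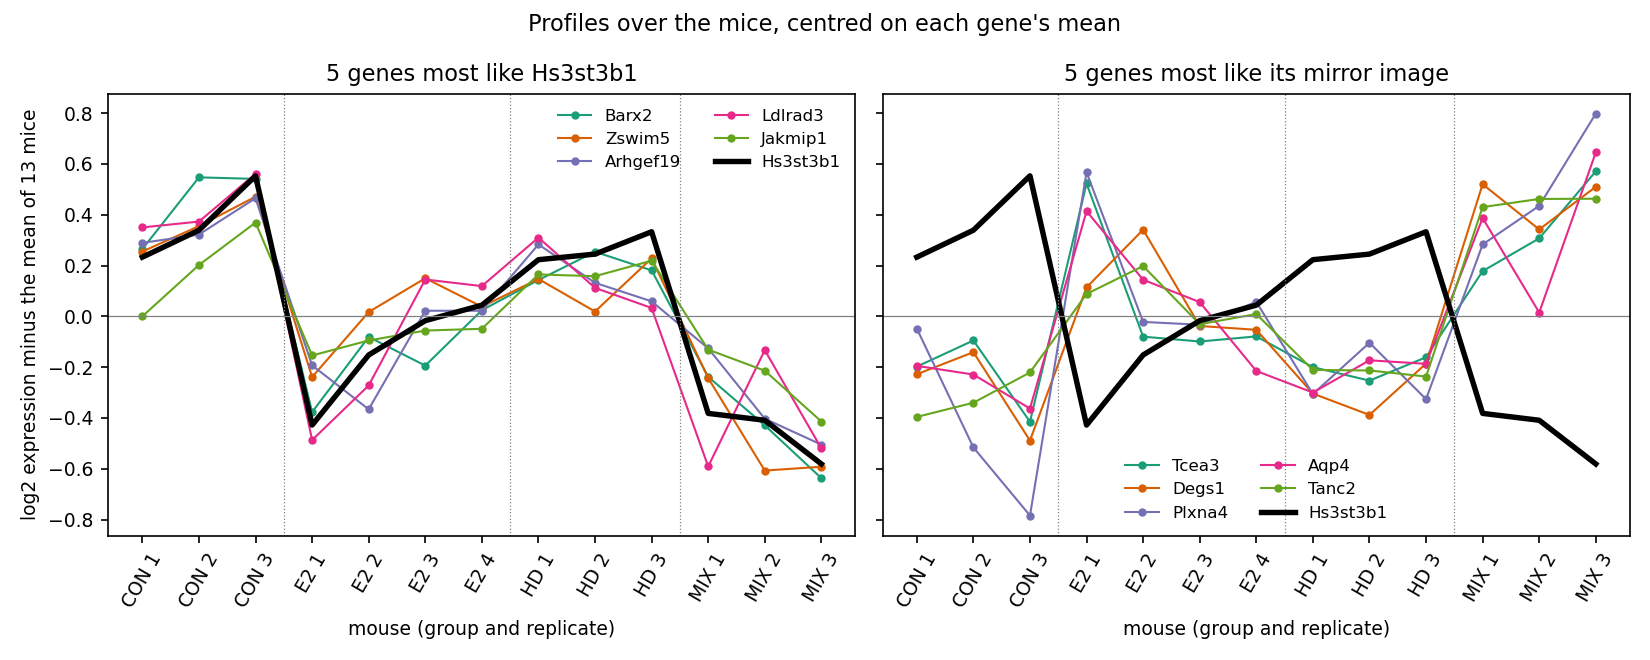
Mean-centred log2 profiles over the 13 mice of Hs3st3b1 with the 5 most similar genes and the 5 nearest to its reversed profile. Barx2 (root mean square difference 0.103) lies closest to Hs3st3b1 and Tcea3 (0.136) closest to the reversed profile.

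The rest of the pathway was followed by fixed lists, and 0 of their genes passed in any of the 8 comparisons in limma. Among 11 linker and polymerase genes, which start and extend the chain, 1 had an unadjusted p under 0.05 higher and 1 lower in the average pellet difference, against 3.73% and 6.25% of all features. B3galt6, a linker galactosyltransferase, had means of 6.1 ± 0.12 in CON, 5.92 ± 0.11 in E2, 5.9 ± 0.21 in HD and 5.7 ± 0.13 in MIX (MIX minus CON -0.53, SE 0.11; unadjusted p 0.000523, limma adjusted p 0.251). B3gat3, the linker glucuronyltransferase, was -0.27 in MIX minus HD (SE 0.1, limma adjusted p 0.692), and Ext1, a chain polymerase, 0.27 in the average pellet difference (SE 0.11, limma adjusted p 0.462). Of the 7 other modifying enzymes, 0 of 7 had an unadjusted p under 0.05 in E2 minus CON, MIX minus CON or the average pellet difference, and the smallest p values were those of Hs3st6, Hs6st3 and Hs3st2.

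Of the core proteins, 14 were measured and 3 had an unadjusted p under 0.05 higher and 1 lower in the average pellet difference, against 3.73% and 6.25% of all features. Srgn, the core protein of intracellular granule proteoglycan, had means of 7.21 ± 0.36 in CON, 8.21 ± 0.35 in E2, 7.4 ± 0.19 in HD and 8.42 ± 0.35 in MIX, and all 7 pellet mice lay above all 6 others, as in 227 (0.344%) of all features. Its average pellet difference was 1.05 (SE 0.18; unadjusted p 0.000148, limma adjusted p 0.139), and it was 1.145 with a limma adjusted p of 0.0408 without MIX replicate 1. Gpc3, a surface glypican, had 7.4 ± 0.32 in CON, 8.3 ± 0.48 in E2, 7.52 ± 0.23 in HD and 8.78 ± 0.62 in MIX, and was among the same 0.344% with no overlap between pellet mice and the rest (1.17, SE 0.23, limma adjusted p 0.195). Gpc4 was 1.02 in MIX minus HD (SE 0.33, limma adjusted p 0.685). Srgn and Gpc3 were thus opposite in direction to Hs3st3b1.

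Among 7 genes that supply the sulfate donor, Papss1, which makes the donor molecule, had 8.06 ± 0.1 in CON, 8.08 ± 0.2 in E2, 8.04 ± 0.03 in HD and 8.5 ± 0.19 in MIX, and the MIX mice lay above CON and HD without overlap, where 5.52% and 3.47% of all features did (MIX minus HD 0.37, SE 0.14, limma adjusted p 0.685). Its relative Papss2 averaged 0.72 higher with the pellet (SE 0.37, limma adjusted p 0.551), or 0.446 without E2 replicate 1. Over all alternatives this difference ran from 0.046 to 0.991. Among 10 genes of breakdown, Sumf1, which activates the lysosomal sulfatases, had 6.77 ± 0.24 in CON, 7.07 ± 0.04 in E2, 7.13 ± 0.13 in HD and 7.34 ± 0.09 in MIX (MIX minus CON 0.61, SE 0.13; unadjusted p 0.000822, limma adjusted p 0.292), which was 0.341 without CON replicate 3. Arsg was -0.33 in MIX minus CON (SE 0.11, limma adjusted p 0.45), and -0.137 without CON replicate 3. Of 15 enzymes of chondroitin and dermatan sulfate, the neighbouring sugar family, 3 had an unadjusted p under 0.05 higher and 0 lower in the average pellet difference, against the same 3.73% and 6.25% of features, among them Csgalnact2 (0.34, SE 0.09, limma adjusted p 0.299, or 0.416 with a limma adjusted p of 0.0428 without MIX replicate 1) and Chst15 (0.59, SE 0.19, limma adjusted p 0.38). Dsel was 0.61 in HD minus CON (SE 0.17, limma adjusted p 1). The medians of the lists lay between -0.02 and 0.09 in the average pellet difference, against -0.03 over all features.

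**Figure D5:**
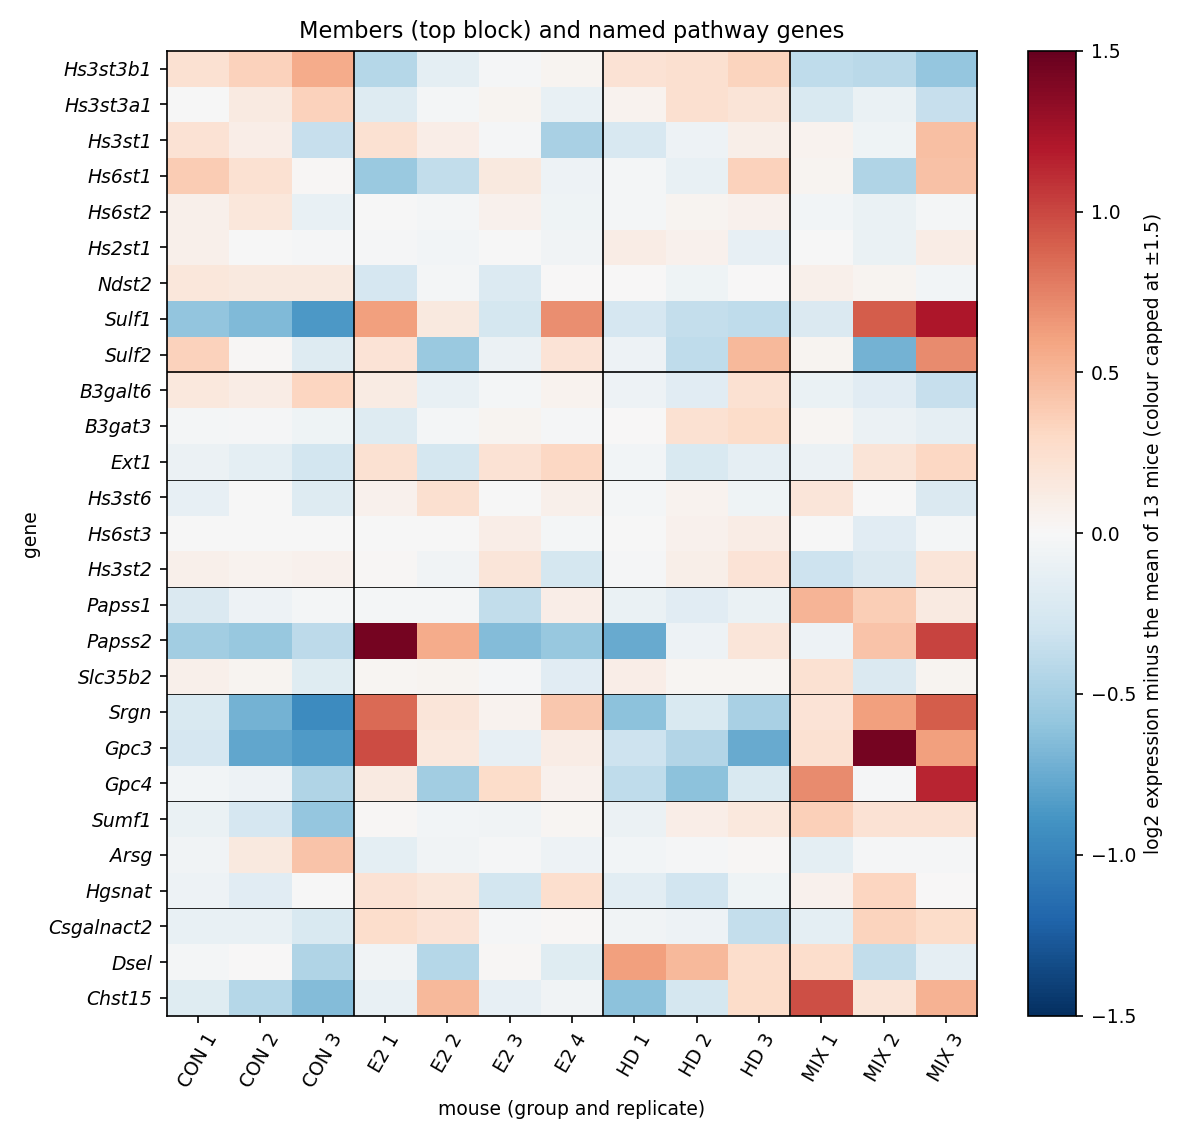
Heat map of mean-centred log2 levels in each mouse, with the measured members in the top block and the named pathway genes below, by list. Srgn and Gpc3 are higher in every pellet mouse than in any mouse without a pellet, and Hs3st3b1 is lower.

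Markers of other cells differed in level between the groups as well. The macrophage markers (7 of 7 measured) averaged 7.16 to 7.59 in CON, 8.39 to 8.61 in E2, 7.98 to 8.37 in HD and 8.54 to 9.71 in MIX, and the 5 mesothelial markers 7.49 to 8.13, 8.06 to 9.29, 8.17 to 8.29 and 8.48 to 9.23. In the average pellet difference 7 of 7 macrophage, 5 of 5 mesothelial and 6 of 6 lymphocyte markers were above 0, with medians of 0.99, 0.99 and 0.61. The same held for 7 of 7 stromal and 5 of 5 endothelial markers, with medians of 0.49 and 0.38. Of the epithelial markers 3 of 6 were above 0 and of the mast cell markers 4 of 8, with medians of -0.01 and 0.01. By the same measure 5 of 5 adipocyte and 5 of 6 smooth muscle markers were below 0, both with a median of -0.19. The lymphocyte markers, Ptprc among them, averaged 5.27 to 5.62 in CON, 5.61 to 6.23 in E2, 5.43 to 5.5 in HD and 5.73 to 6.64 in MIX. Of the red cell markers only Alas2, an enzyme of heme synthesis in erythroid cells, was measured. It lay at 6.43 to 7.61 in CON, 7.1 to 8.19 in E2, 6.35 to 8.09 in HD and 8.27 to 8.66 in MIX. Alas2 passed in limma in MIX minus CON, MIX minus HD and the average pellet difference. With the code style its MIX minus CON and MIX minus HD differences were 2.18 and 1.89, against 1.36 and 1.07 between plain group means. The lowest mouse of CON, of E2 and of HD was in each case the 1 lettered mouse. The part of these cells in the levels of Hs3st3b1, Hs3st3a1, Sulf1, Srgn and Gpc3 was not tested, and in scraped tissue fewer cells of a type and less RNA per cell cannot be told apart. Epithelial markers (6 of 7 measured) averaged 10.58 to 10.76 in CON and 10.37 to 11.06 in MIX, and stromal markers (7 of 8) 7.73 to 8.54 and 8.05 to 9.51, both far above the array medians. MIX replicate 2 stood apart, with endothelial markers at 8.29 where MIX otherwise began at 4.89 and the other groups reached 6.37 at most, and with stromal markers at 9.51. Its Hs3st3b1 level of 6.36 lay between those of the other MIX mice. As a check of the pellet label, Esr1 was -0.46 (SE 0.19, limma adjusted p 0.461) and Pgr -0.55 (SE 0.31, limma adjusted p 0.573) in the average pellet difference. Ltf was 0.39 (SE 0.18, limma adjusted p 0.513) and Lcn2 0.17 (SE 0.16, limma adjusted p 0.732), and none of these genes passed. Even in CON, without a pellet, Ltf lay at 12.02 to 12.49 and Lcn2 at 11.21 to 11.8, far above the array medians. Esr1 and Pgr had their highest group means in CON, 9.44 and 10.54.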

How the data were processed

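Endometrial RNA of 13 mice (250 ng of total RNA each) was measured on Affymetrix arrays. The deposited values are log2 expression per feature, which the authors computed with RMA (named in the submitters' processing notes, without a version). No genome build or filter is given in the sources used here. RMA processes all arrays together and compresses differences of dim features. An array gives no read depth, so precision rests on the number of mice.

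Features were named through the supplied annotation, with 827 symbols updated: of 65929 features, 30604 had 1 symbol, 2146 several and 33179 none here. Array medians were 4.48 to 4.71, and correlations between arrays 0.96 to 0.995 across features. At most 2742 values were identical in a pair of arrays.

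Differences were fitted with limma 3.58.1 (lmFit, eBayes; R 4.3.3), tested on simulated data, with 4 group coefficients and code style as covariate (8 residual and 2.225 prior degrees of freedom), two-sided, with Benjamini-Hochberg adjustment over all features and a threshold of 0.05. For code style itself 0 features passed in limma and 3516 had an unadjusted p under 0.05. Named genes were all members with a feature, from each list the genes that passed, or up to 3 of smallest p where none did, the 5 genes most like Hs3st3b1 in profile, and the 5 nearest to its reversed profile. Symbols of the Gm, Rik, LOC, Olfr and Vmn kinds were left out of that ranking. The members and lists were chosen with earlier results of these data known. Alternatives were no covariate, a replicate block, a mean filter of 5, quantile normalization, an intensity trend, array weights, fits within groups or code styles, and each mouse left out.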

Additional observations from a re-analysis of the deposited data

Results flagged for a closer look

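Among 30 named genes, 2 had a mouse far from the others of the E2 group, whose 4 mice allow such a check. Hgsnat, a lysosomal enzyme of heparan sulfate breakdown, was lowest in E2 replicate 3 at 8.25, a gap of 0.845 of the group's range. Chst15, a sulfotransferase of chondroitin sulfate, was highest in E2 replicate 2 at 6.67, a gap of 0.88 of the range. Both gaps exceed Dixon's 95% critical value for 4 samples, which chance alone passes in about 1 in 20 groups.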

How the results depend on the processing

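The count of tested members that passed was 0 in all 8 comparisons under every alternative run, except that leaving out 1 mouse at a time gave 0 to 1 in the average pellet difference: Sulf1 passed without MIX replicate 1. Over all alternatives Hs3st3b1 kept its sign in E2 minus CON, MIX minus CON, MIX minus HD, MIX minus E2 and the average pellet difference. It also kept it in HD minus CON, the interaction and the average diet difference. Among the other members, 159 of 1400 rounded alternative values did not share the sign of the rounded main value, over 37 of 64 results. Of these values, 20 were of Ndst2 in MIX minus HD and 19 of Hs6st1 in the average diet difference. Both of those main differences round to 0, so no sign could be compared. The main differences of the 37 results were at most 0.275 in size. Their alternative values reached further, as to 0.683 for Sulf2 in HD minus CON, where the main difference was -0.041. No called value changed sign.

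The number of passing features depended on single mice. It was 2 in MIX minus CON (0 to 89, the highest without MIX replicate 2), 3 in MIX minus HD (0 to 80, without MIX replicate 1) and 11 in the average pellet difference (0 to 224, without MIX replicate 1). It was 0 in MIX minus E2 (0 to 24, without MIX replicate 2), in the interaction (0 to 2) and in the average diet difference (0 to 3, without HD replicate 3), and 0 throughout in E2 minus CON and HD minus CON. The cause was not tested.

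Replicate numbers did not pair the mice: deviations of the 18 same-numbered pairs correlated at -0.261 to 0.31, 5 pairs exceeded 0.1, and 4 of 13 mice correlated best with their own number. With the replicate block, the difference of Hs3st3b1, MIX minus CON, was -0.925 with code style and -0.832 without, and the count of passing members stayed 0. Each member has 1 feature, so no choice between features arose. Fits within a code style could not be made for MIX among numbered mice, and the averages and the interaction need all groups. Within lettered mice, the lone CON, E2 and HD mice are assumed to vary like MIX. With 3 or 4 mice per group, moderate differences may not pass.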
